A study of Mus musculus with 9 samples.

Results

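The protein genes of the cytosolic ribosome were followed in F9 cells, a mouse embryonal carcinoma line, after 24 h with retinoic acid (RA), trichostatin A (TSA) or the ethanol vehicle. The genes were taken by symbol: probe sets with a single platform gene symbol made of Rpl or Rps and a number, or Rplp0, Rplp1, Rplp2 or Rpsa, leaving out the Rps6k kinase genes. This gave 35 of 8251 genes with such a probe set, measured by 49 of 12422 probe sets. Of these genes 17 are named Rpl (22 probe sets) and 18 Rps (27 probe sets). Rplp1 and Rplp2 had no probe set with a single symbol. A further 39 probe sets list a ribosomal protein gene among several symbols, and are given only as a group. The list holds the paralogues Rpl39l, Rps27l, Rpl7l1 and Rps4l beside their parent genes.

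The RA group had 0.5 µM RA, the TSA group 0.07 µM TSA and the vehicle group ethanol in the medium, with 3 arrays each. All 3 groups are the same cell line, so each result is for that line only. No label tells separate cultures from repeats of one, so the p-values rest on a spread that could be technical. The deposited value of a probe set on an array is the ratio to its mean over the vehicle arrays. Brightness cannot be read from such ratios. Neither the level of one gene against another nor the presence of a cell type's markers can therefore be given.

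A ribosome is built from a small subunit, which reads the mRNA, and a large subunit, which joins the amino acids. Their proteins, named Rps and Rpl, are made in matched amounts and assembled with rRNA in the nucleolus. In fast-growing cells such as embryonal carcinoma they are among the most abundant transcripts. Their mRNAs usually start with a C followed by a run of pyrimidines, the terminal oligopyrimidine tract, through which mTOR and Larp1 control their translation. Arrays measure the amount of mRNA and not its translation.

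The tract was looked for in the RefSeq promoter table (GRCm38.p6), on the strand that reads like the mRNA. It was taken as a C at the annotated start followed by at least 4 bases that are each C or T. A gene with several annotated starts was counted, here and below, if any of them had the tract. Of the 35 genes 28 had an entry, and 5 of these 28 (17.9%) had such a start, against 3.01% of all 27025 genes in the table. With a C within 5 bases of the annotated start, the counts were 11 of 28 genes (39.3%) and 21.2% of all genes. The windows below run from 10 bases before the annotated start to base 20 of the transcript. Capitals mark the first C with at least 4 following pyrimidines, to the end of that run, at or after the annotated start. For the first 5 genes the start shown was picked because it has the tract. In Rpl38 and Rpl35a it lies inside the gene, at 114668580 and 33056482, where the genes begin at 114667818 and 33056453. Rplp0 and Rpl13a, often used as reference genes, had no tract at the annotated start. They are shown with the first such run further in, which is not a tract as defined here.
Rps18 (chr17:33955646-33955675, minus strand): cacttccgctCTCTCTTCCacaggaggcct
Rps10 (chr17:27635225-27635254, minus strand): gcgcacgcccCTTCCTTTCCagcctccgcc
Rps27 (chr3:90213629-90213658, minus strand): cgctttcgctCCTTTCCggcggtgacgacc
Rpl38 (chr11:114668570-114668599, plus strand): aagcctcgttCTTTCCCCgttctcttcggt
Rpl35a (chr16:33056472-33056501, plus strand): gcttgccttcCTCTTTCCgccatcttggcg
Rplp0 (chr5:115559457-115559486, plus strand): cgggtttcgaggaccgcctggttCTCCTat
Rpl13a (chr7:45128726-45128755, minus strand): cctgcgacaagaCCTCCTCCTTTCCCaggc
In Rpl13a the run starts at base 3 of the annotated transcript and in Rplp0 at base 14. The 5 genes with the tract at an annotated start had median log2 changes of -0.30 in RA and -0.33 in TSA, and the 23 without it -0.29 and -0.37. Since 11 genes count when 5 bases either way are allowed, this split depends on the exact base annotated. It cannot tell genes with a tract from genes without one, and a part of the tract in the changes was not tested.

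No ribosomal protein probe set passed the test in any comparison, while most of them lay somewhat below vehicle with each compound. The fit was limma over all 9 arrays on log2(ratio + 0.05), with Benjamini-Hochberg adjustment over all 12422 probe sets and a threshold of 0.05. Fold changes on that scale understate changes of low values. In RA, 0 of 49 passed, against 1.36% of all probe sets (169). In TSA, 0 of 49 passed, against 3.48% (432). At an unadjusted p under 0.05 there were 3 of 49 in RA, against 12.7% of all, and 7 of 49 in TSA, against 19.6%. The smallest adjusted p was 0.318 in RA and 0.148 in TSA by the same test.

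The median log2 change of the 49 was -0.29 in RA, where the median of all probe sets was -0.12, and -0.38 in TSA, where that of all was -0.17. The members' median thus lay below that of all probe sets by a log2 difference of -0.17 in RA and -0.21 in TSA. In RA, 37 of the 49 changes were negative (75.5%), against 62.3% of all probe sets. In TSA, 41 were negative (83.7%), against 63.9% of all. These 2 comparisons share the vehicle arrays, whose labels word the core facility differently from those of the treated arrays, so facility and treatment cannot be told apart should they differ. In RNA from whole cultures, fewer cells of a kind and less RNA per cell cannot be told apart either. With each array centred on its own median, the members' median was -0.13 in RA and -0.18 in TSA. The large subunit had medians of -0.31 in RA and -0.37 in TSA, and the small subunit -0.23 and -0.38.

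**Figure D1:**
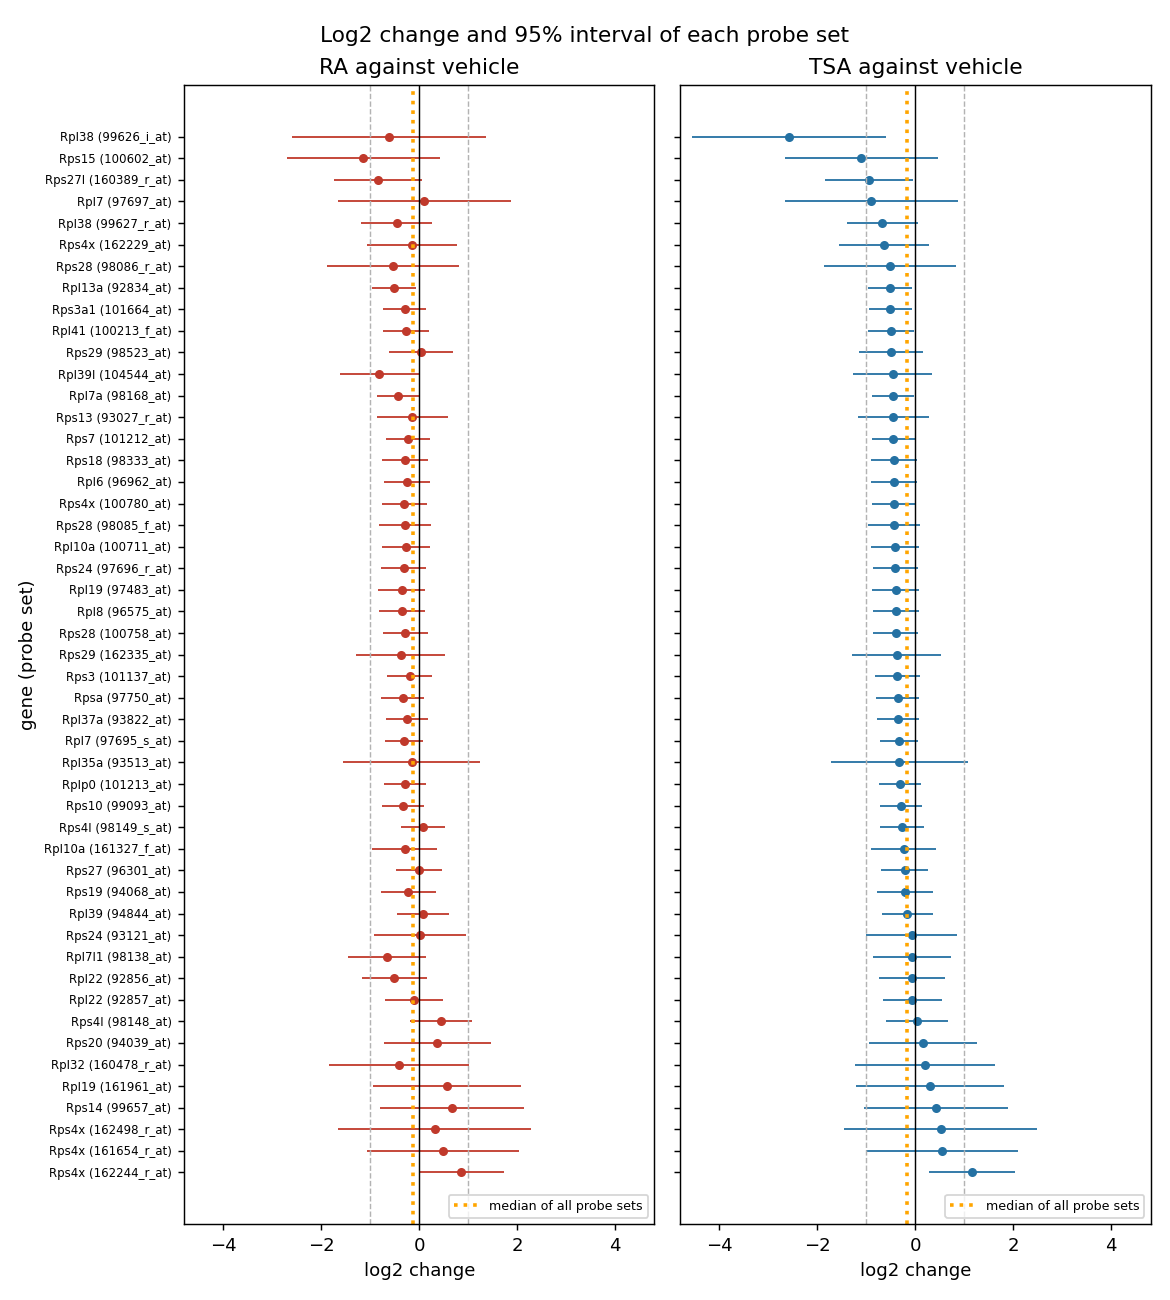
Log2 change of each of the 49 probe sets with its 95% interval from the limma fit (x axis) for RA against vehicle and TSA against vehicle, ordered by the TSA change. Dotted lines mark the median of all probe sets (-0.12 and -0.17) and dashed lines a 2-fold change; most points lie left of 0, and in each panel 29 of 49 intervals lie within 2-fold.

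The intervals bound the size of the change for many members. The 95% interval of 29 of 49 members lay wholly within a 2-fold change in either direction in RA, and that of 29 in TSA. For all probe sets these shares were 46.5% and 41.0%. The widest intervals were those of Rpl38 (99626_i_at), Rps4x (162498_r_at), Rpl7 (97697_at) and Rps15, whose replicate arrays differed by several fold.

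Read array by array, the ratios in TSA were lower and alike, whereas those in RA differed between replicates. The median ratio of the 49 probe sets was 0.837, 0.683 and 0.952 on RA replicates 1, 2 and 3, 0.762, 0.719 and 0.782 on TSA replicates 1, 2 and 3 and 1.03, 0.961 and 1.03 on vehicle replicates 1, 2 and 3. All TSA medians lay below all vehicle medians. RA replicate 2 was the lowest of the 9 arrays, and RA replicate 3 lay just under the vehicle arrays.

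Set against the median of all probe sets on the same array, the members' median differed on the log2 scale by -0.06, -0.32 and 0.05 on RA replicates 1, 2 and 3. The differences were -0.18, -0.18 and -0.16 on the TSA arrays and 0.02, -0.03 and 0.07 on the vehicle arrays. They averaged -0.11 ± 0.19 in RA, -0.17 ± 0.014 in TSA and 0.019 ± 0.053 in vehicle (SD, n = 3 each). The TSA arrays did not overlap the vehicle arrays on this measure, and the RA arrays did. RA replicate 2 decided much of the RA value: without it the members' median change relative to all probe sets was -0.050 on the log2 scale, against -0.17 with it. Without vehicle replicate 1 that value was -0.11. Of the 49 probe sets 31, 34 and 20 lay below the array's median on RA replicates 1, 2 and 3, 36, 43 and 34 on the TSA arrays and 24, 31 and 19 on the vehicle arrays.

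**Figure D2:**
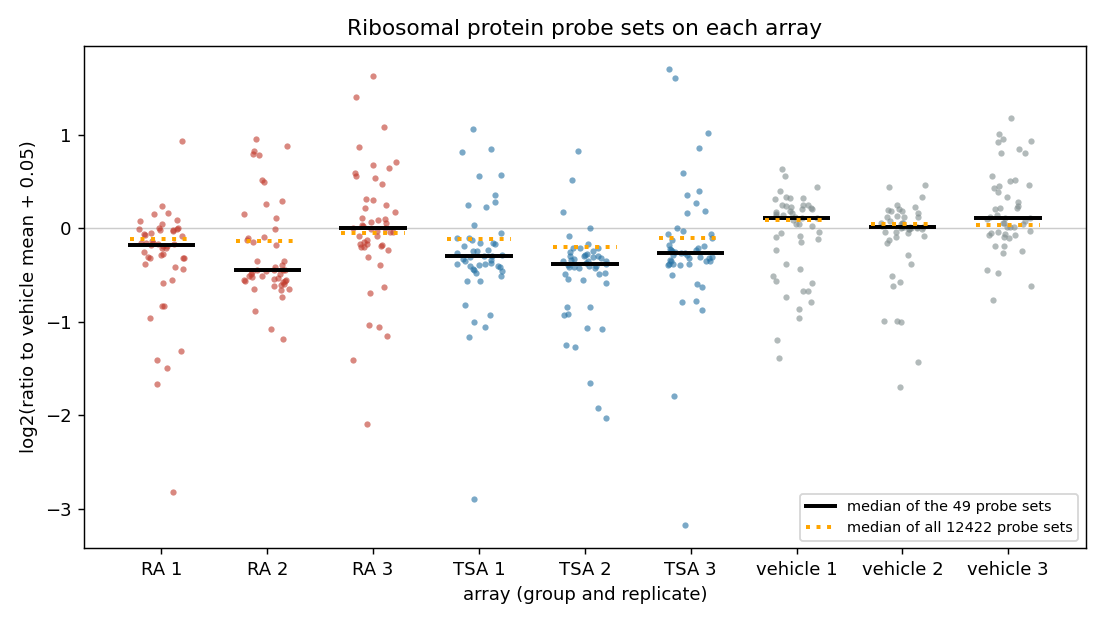
Each point is 1 of the 49 ribosomal protein probe sets on 1 array (x axis), as log2(ratio to the vehicle mean + 0.05) (y axis); black bars are the members' median and dotted orange bars the median of all 12422 probe sets. The black bar lies below the orange one on the 3 TSA arrays and on RA replicates 1 and 2, and above it on RA replicate 3.

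The signal of the 3 control probe sets for 18S rRNA, the RNA of the small subunit, differed between arrays as well. Its median ratio was 0.0723, 0.0515 and 0.961 on RA replicates 1, 2 and 3, 0.0336, 0.0427 and 0.0531 on the TSA arrays and 0.538, 0.0730 and 2.40 on the vehicle arrays. The median of 18 control probe sets for bacterial and phage hybridisation spikes was 0.614, 0.413 and 1.03 on the RA arrays, 0.563, 0.599 and 0.726 on the TSA arrays and 0.822, 0.890 and 1.23 on the vehicle arrays. Among the RA arrays, replicate 3 was the highest and replicate 2 the lowest in both control signals and in the ribosomal protein ratios. The 18S signal of vehicle replicate 2 was low like those of the TSA arrays, and its spike signal was above all of them. Without vehicle replicate 3 and RA replicate 3, the arrays with the highest 18S signal, the members' median log2 change was -0.38 in RA and -0.41 in TSA. The part of the control signals in the ribosomal protein ratios was not tested.

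Marker genes were called in the limma fit with the probe sets of a gene averaged. In it, 98 of 8251 genes were called higher and 52 lower in RA, and 224 higher and 147 lower in TSA. Of 5 measured RA response genes 5 were higher in RA and 2 in TSA. Their summed ratio was 338 to 407 on the RA arrays, 36.1 to 62.4 on the TSA arrays and 4.33 to 5.5 on the vehicle arrays. Of 9 genes of embryonal carcinoma cells 3 were lower in RA and 2 in TSA, with summed ratios of 4.34 to 4.91 on the RA arrays, 6.76 to 7.96 on the TSA arrays and 7.90 to 10.4 on the vehicle arrays. Of 6 fibroblast or feeder genes none passed in RA and 2 were higher in TSA. Their summed ratio was 4.79 to 6.70 on the RA arrays, 14.1 to 21.1 on the TSA arrays and 4.14 to 9.04 on the vehicle arrays. Such a sum of linear ratios is weighted to the genes with the largest ratios, so it does not show how each gene of a list moved. The part of other cells in the ribosomal protein ratios was not tested.

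Counted by overlap of arrays, more members lay below vehicle than above it with each compound. In TSA, 23 of 49 probe sets (46.9%) had all TSA arrays below all vehicle arrays, against 17.1% of all probe sets, and 1 lay above, against 9.26%. In RA the counts were 13 of 49 below (26.5%), against 11.0% of all, and 0 above, against 5.93%. The 13 in RA came from 11 of 22 large subunit and 2 of 27 small subunit probe sets. In TSA they were 11 of 22 and 12 of 27. Whether the subunits differed was not tested.

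Among large subunit proteins, Rplp0, the base of the stalk that binds elongation factors, had ratios of 0.837, 0.663 and 0.945 on the RA arrays, 0.737, 0.790 and 0.866 on the TSA arrays and 1.03, 0.947 and 1.03 on the vehicle arrays. All RA and all TSA arrays lay below all vehicle arrays. Its log2 change was -0.29 ± 0.19 in RA and -0.31 ± 0.19 in TSA (SE), with adjusted p of 0.580 and 0.411 (limma, Benjamini-Hochberg). The 95% intervals were -0.72 to 0.14 in RA and -0.74 to 0.12 in TSA, which leave out a 2-fold change. Rplp0 is a common reference gene in quantitative PCR.

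Rpl13a, another such reference gene, whose protein can also leave the ribosome to repress inflammatory mRNAs, had the smallest adjusted p of the members in RA. Its ratios were 0.717, 0.608 and 0.710 on the RA arrays, 0.749, 0.637 and 0.657 on the TSA arrays and 1.2, 0.973 and 0.827 on the vehicle arrays, again with no overlap between either treatment and vehicle. The log2 change was -0.52 ± 0.20 in RA and -0.51 ± 0.20 in TSA (SE), with adjusted p of 0.318 and 0.200 (limma). Rpl19 was measured by a pair of probe sets that did not move alike. Probe set 97483_at had 0.847, 0.581 and 0.925 on the RA arrays, 0.683, 0.737 and 0.813 on the TSA arrays and 1.06, 0.961 and 0.980 on the vehicle arrays, with every treated array below all vehicle arrays. Probe set 161961_at had 1.86, 1.68 and 0.568 on the RA arrays, 1.44, 1.38 and 0.496 on the TSA arrays and 0.579, 0.451 and 1.97 on the vehicle arrays, and its groups overlapped. Rpl32 had 0.326, 0.611 and 1.2 on the RA arrays, 1.72, 0.508 and 1.07 on the TSA arrays and 0.501, 0.651 and 1.85 on the vehicle arrays, with overlap between all groups.

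Rpl7a had 0.756, 0.601 and 0.844 on the RA arrays, 0.705, 0.725 and 0.712 on the TSA arrays and 1.1, 0.967 and 0.930 on the vehicle arrays, all treated arrays below vehicle. Rpl8, a protein close to the site where amino acids are joined, had 0.940, 0.586 and 0.827 on the RA arrays, 0.701, 0.733 and 0.807 on the TSA arrays and 1.07, 0.964 and 0.963 on the vehicle arrays, with the same order. Their log2 changes were -0.43 and -0.35 in RA and -0.45 and -0.40 in TSA. Rpl6 (-0.26 in RA and -0.44 in TSA) and Rpl37a (-0.25 and -0.35) also had all treated arrays below vehicle. Rpl41, the shortest of these proteins, had 0.861, 0.640 and 0.973 on the RA arrays, 0.655, 0.663 and 0.770 on the TSA arrays and 0.968, 0.918 and 1.11 on the vehicle arrays, so that only TSA stood apart. Rpl10a, measured by a pair of probe sets, had log2 changes of -0.27 and -0.30 in RA and -0.42 and -0.24 in TSA, with all TSA arrays below vehicle on 100711_at alone. Rpl35a had 0.512, 0.738 and 1.4 on the RA arrays, 0.474, 0.424 and 1.76 on the TSA arrays and 0.463, 1.21 and 1.33 on the vehicle arrays, spread over the same range in each group. These genes, Rpl7a, Rpl8, Rpl6, Rpl37a, Rpl41, Rpl10a and Rpl35a, were named after their values were seen.

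Rpl22, an RNA-binding protein that mice need for T cell development, was measured by a pair of probe sets. Probe set 92856_at had 0.843, 0.857 and 0.431 on the RA arrays, 0.884, 0.816 and 1.16 on the TSA arrays and 0.916, 0.868 and 1.22 on the vehicle arrays. Probe set 92857_at had 1.02, 0.880 and 0.801 on the RA arrays, 1.16, 0.816 and 0.837 on the TSA arrays and 1.21, 1.12 and 0.671 on the vehicle arrays. Only the first lay below vehicle on all RA arrays, and in TSA both overlapped vehicle, with log2 changes of -0.07 and -0.06.

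Rpl38, which mouse embryos need for the translation of a group of Hox mRNAs, had the lowest TSA value of all members and uneven RA replicates. Probe set 99626_i_at had 0.0914, 1.14 and 1.59 on the RA arrays, 0.0846, 0.268 and 0.0605 on the TSA arrays and 1.01, 0.605 and 1.38 on the vehicle arrays. The TSA arrays lay far below vehicle, but RA replicate 1 was as low as they were while RA replicates 2 and 3 were not. The log2 change in TSA was -2.57 ± 0.87 (SE), with an adjusted p of 0.154 (limma, Benjamini-Hochberg). Without RA replicate 1, the same change had an adjusted p of 0.0369 by the same test, and no other of the 19 alternative settings called a member in TSA. The other probe set, 99627_r_at, had 0.615, 0.687 and 0.819 on the RA arrays, 0.629, 0.366 and 0.911 on the TSA arrays and 0.892, 0.849 and 1.26 on the vehicle arrays, and its TSA arrays overlapped vehicle. Affymetrix marks with the suffixes _i, _r and _f probe sets with fewer probes, relaxed design rules or a match to a gene family.

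Rpl7 had a pair of unlike probe sets as well. Probe set 97695_s_at had 0.792, 0.737 and 0.836 on the RA arrays, 0.80, 0.778 and 0.756 on the TSA arrays and 1.12, 0.994 and 0.888 on the vehicle arrays, below vehicle on all treated arrays, and 97697_at had 0.266, 1.73 and 1.42 on the RA arrays, 0.625, 0.214 and 0.530 on the TSA arrays and 0.985, 0.322 and 1.69 on the vehicle arrays, with wide spread in all groups. Across the 10 genes with several probe sets, the log2 changes of a gene's probe sets differed by a median of 0.38 in RA and 0.33 in TSA, and by up to 1.16 and 1.90.

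Among small subunit proteins, Rpsa, which also serves as a laminin receptor, had 0.899, 0.639 and 0.822 on the RA arrays, 0.795, 0.747 and 0.760 on the TSA arrays and 1.14, 0.944 and 0.916 on the vehicle arrays. All treated arrays lay below vehicle, with log2 changes of -0.33 ± 0.19 in RA and -0.36 ± 0.19 in TSA (SE) and adjusted p of 0.524 and 0.355 (limma). Rps18, a reference gene in many studies, had 0.828, 0.625 and 1.00 on the RA arrays, 0.692, 0.701 and 0.781 on the TSA arrays and 1.05, 0.942 and 1.01 on the vehicle arrays. Only TSA stood apart from vehicle, since RA replicate 3 lay among the vehicle arrays. The change of Rps18 was -0.30 in RA and -0.44 in TSA on the log2 scale.

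Rps3, at the channel where mRNA enters the ribosome, had 0.936, 0.674 and 1.01 on the RA arrays, 0.759, 0.719 and 0.80 on the TSA arrays and 1.12, 0.959 and 0.925 on the vehicle arrays, with the TSA arrays alone below vehicle. Rps7, whose human protein can bind the p53 regulator MDM2, had 0.931, 0.654 and 0.994 on the RA arrays, 0.718, 0.704 and 0.739 on the TSA arrays and 1.03, 0.979 and 0.989 on the vehicle arrays, in the same order. Rps3a1 had 0.848, 0.651 and 0.923 on the RA arrays, 0.677, 0.665 and 0.716 on the TSA arrays and 1.13, 0.956 and 0.910 on the vehicle arrays, and its log2 change of -0.51 ± 0.19 in TSA (SE) had an adjusted p of 0.199 (limma). Rps28 had log2 changes of -0.29, -0.29 and -0.54 in RA and -0.40, -0.43 and -0.53 in TSA on its 3 probe sets, the first and second with all TSA arrays below vehicle. Rps24 had 0.813, 0.627 and 0.969 on the RA arrays, 0.715, 0.703 and 0.801 on the TSA arrays and 1.09, 0.922 and 0.991 on the vehicle arrays on 97696_r_at, with the TSA arrays alone below vehicle, and overlapped throughout on 93121_at. Rps10 had 0.771, 0.679 and 0.894 on the RA arrays, 0.773, 0.756 and 0.884 on the TSA arrays and 1.13, 0.962 and 0.903 on the vehicle arrays, all treated arrays below vehicle. Rps13 had 0.752, 0.630 and 1.51 on the RA arrays, 0.725, 0.839 and 0.599 on the TSA arrays and 0.855, 1.04 and 1.11 on the vehicle arrays, so that RA replicate 3 was above vehicle while the TSA arrays were below. Rps29 overlapped in each comparison on both of its probe sets, with log2 changes of 0.03 and -0.38 in RA and -0.49 and -0.38 in TSA. These genes from Rps7 to Rps29 were named after their values were seen. Rps19, mutated in human Diamond-Blackfan anaemia, had 0.914, 0.70 and 0.870 on the RA arrays, 0.796, 0.772 and 0.931 on the TSA arrays and 1.27, 1.05 and 0.684 on the vehicle arrays, and vehicle replicate 3 lay below all treated arrays.

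Several small subunit genes varied widely between replicates. Rps15, needed for export of the small subunit precursor in human cells, had 0.634, 0.423 and 0.184 on the RA arrays, 1.12, 0.194 and 0.239 on the TSA arrays and 0.628, 0.621 and 1.75 on the vehicle arrays. Its log2 changes of -1.14 ± 0.68 in RA and -1.10 ± 0.68 in TSA (SE) were the lowest of the small subunit, yet the arrays overlapped. Rps14, linked to the human 5q- syndrome, had 0.689, 1.36 and 2.07 on the RA arrays, 0.867, 0.892 and 1.46 on the TSA arrays and 0.886, 0.259 and 1.86 on the vehicle arrays, the highest gene-level change in RA (0.67 ± 0.64, SE). Rps20 had 0.846, 1.79 and 1.46 on the RA arrays, 1.43, 0.481 and 1.98 on the TSA arrays and 0.927, 0.956 and 1.12 on the vehicle arrays, again with overlap.

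Rps4x, the X-linked copy of a gene with a Y-linked partner in humans, had 5 probe sets whose changes ranged from -0.31 to 0.86 in RA and from -0.64 to 1.15 in TSA. Probe set 100780_at had 0.815, 0.648 and 0.952 on the RA arrays, 0.766, 0.670 and 0.736 on the TSA arrays and 1.14, 0.954 and 0.906 on the vehicle arrays, with the TSA arrays below vehicle. Probe set 162244_r_at had 1.13, 1.89 and 2.59 on the RA arrays, 2.03, 1.73 and 2.99 on the TSA arrays and 0.617, 1.09 and 1.30 on the vehicle arrays, the only member whose TSA arrays all lay above vehicle, with an adjusted p of 0.148 (limma). Probe sets of 1 gene thus pointed in opposite directions, and the direction of Rps4x cannot be read from them. Without Rps4x the members' median was -0.29 in RA and -0.39 in TSA.

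**Figure D3:**
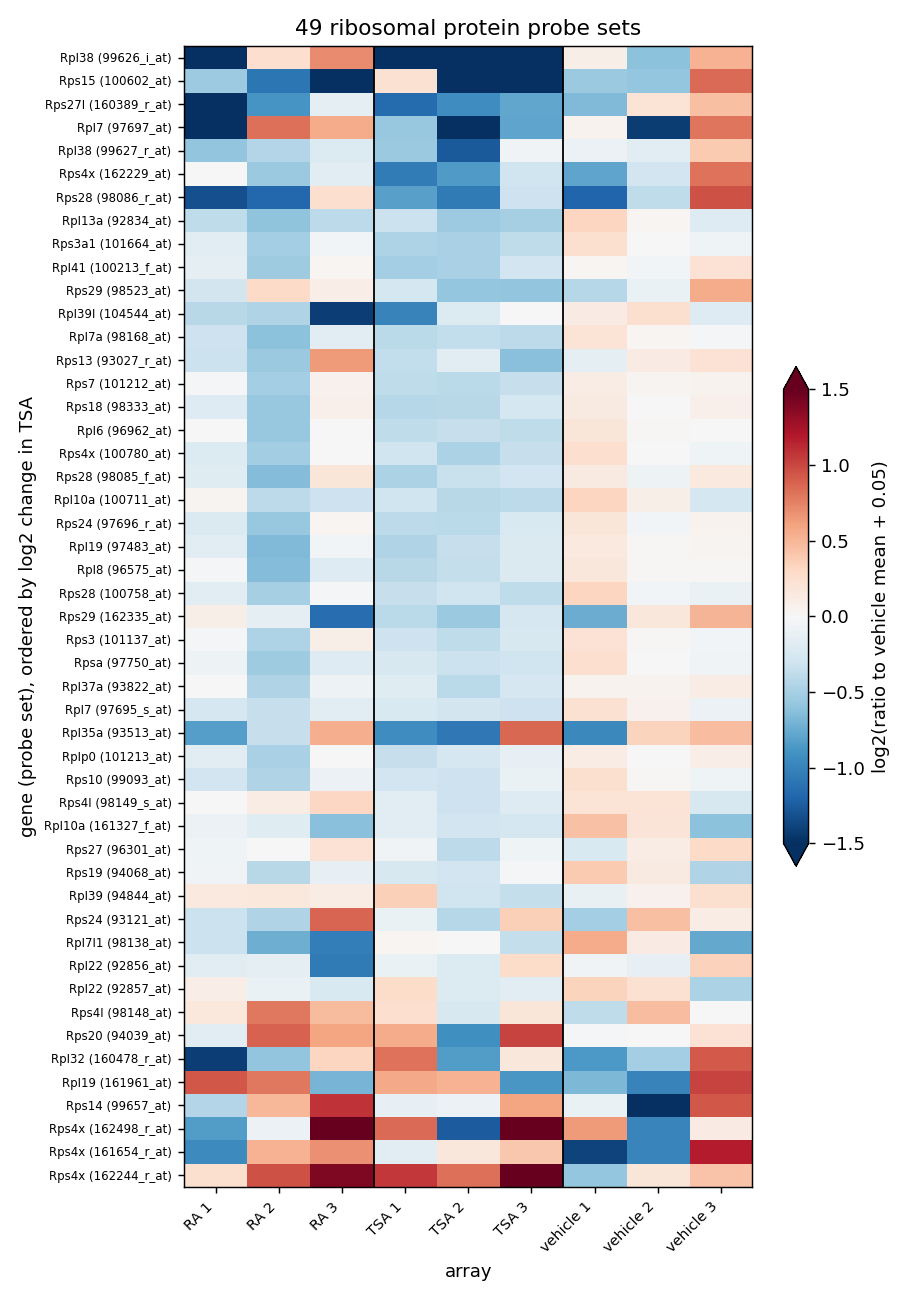
Heat map of the 49 probe sets (rows, ordered by log2 change in TSA) on the 9 arrays (columns), coloured by log2(ratio to the vehicle mean + 0.05) and clipped at 1.5 either way. Many rows in the middle share the same pale blue on the TSA arrays and on RA replicate 2, while the top and bottom rows vary between replicates of a group.

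The paralogues were set beside their parent genes. Rpl39l, expressed mainly in male germ cells in mouse, had 0.699, 0.684 and 0.326 on the RA arrays, 0.450, 0.816 and 0.954 on the TSA arrays and 1.04, 1.14 and 0.826 on the vehicle arrays, below vehicle on all RA arrays. Rpl39 had 1.06, 1.07 and 1.03 on the RA arrays, 1.23, 0.765 and 0.733 on the TSA arrays and 0.875, 0.993 and 1.13 on the vehicle arrays, which overlapped throughout. Their log2 changes were -0.82 ± 0.35 and 0.07 ± 0.23 in RA (SE), and -0.46 and -0.16 in TSA.

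Rps27l, a gene induced by p53, had 0.306, 0.491 and 0.857 on the RA arrays, 0.399, 0.475 and 0.535 on the TSA arrays and 0.580, 1.1 and 1.32 on the vehicle arrays, with all TSA arrays below vehicle. Rps27 had 0.909, 0.949 and 1.11 on the RA arrays, 0.917, 0.712 and 0.909 on the TSA arrays and 0.80, 1.03 and 1.17 on the vehicle arrays, with overlap in each comparison. The log2 changes in TSA were -0.95 ± 0.39 and -0.22 ± 0.21 (SE), and in RA -0.84 ± 0.39 for Rps27l, with Rps27 within 0.01 of no change.

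Rpl7l1, a relative of Rpl7, had 0.750, 0.551 and 0.439 on the RA arrays, 0.973, 0.955 and 0.733 on the TSA arrays and 1.43, 1.04 and 0.539 on the vehicle arrays, a change of -0.67 in RA and -0.08 in TSA, with overlap in both. Rps4l, a copy of Rps4x, had 0.953, 1.03 and 1.19 on the RA arrays, 0.841, 0.753 and 0.827 on the TSA arrays and 1.11, 1.1 and 0.795 on the vehicle arrays on probe set 98149_s_at. Its other probe set, 98148_at, had 1.07, 1.68 and 1.34 on the RA arrays, 1.14, 0.798 and 1.09 on the TSA arrays and 0.716, 1.33 and 0.958 on the vehicle arrays. Their log2 changes were 0.09 and 0.45 in RA and -0.28 and 0.04 in TSA. None of the 4 paralogues passed the test in either treatment, and the differences between a paralogue and its parent were not tested. Close copies and processed pseudogenes of ribosomal protein genes can share a probe set's signal, so single members are uncertain in that respect.

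The members split into probe sets that followed the common pattern closely and others that did not. Over the 9 arrays, 13 of 49 (26.5%) had a Pearson correlation above 0.9 with the members' median, to which they contribute, against 0.816% of the 12373 other probe sets. Those others include the 39 probe sets that list a ribosomal protein gene among several symbols. Of these 39, 19 (48.7%) had a correlation above 0.9, a larger share than that of the members. These 13 were of 13 genes: Rps18, Rps24, Rps7, Rpl41, Rplp0, Rpl19, Rps3a1, Rps4x, Rps28, Rpl7a, Rpl6, Rpl37a and Rps3. Their median ratios were 0.847, 0.640 and 0.956 on RA replicates 1, 2 and 3, 0.715, 0.707 and 0.771 on the TSA arrays and 1.06, 0.956 and 0.989 on the vehicle arrays. The 13 were chosen by this likeness on the same 9 arrays, so that their ratios repeat the pattern of the members' median and do not support it. Another 23 of the 49 had a correlation below 0.5, as did 9586 of the 12373 other probe sets. Probe sets of 1 array share its RNA and hybridisation, so these correlations are a description of 9 arrays.

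For all 49 the median SD between replicates on the log2 scale was 0.31 in RA, 0.19 in TSA and 0.26 in vehicle, against 0.31, 0.26 and 0.41 for all probe sets. The genes outside the list most like the members' median over the 9 arrays were Trim28 (r = 0.977), Orc6 (0.964), Rnf34 (0.963), Supv3l1 (0.963) and Tpt1 (0.961).

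The 39 probe sets that list a ribosomal protein gene among several symbols were read as a group. Their median log2 change was -0.29 in RA and -0.45 in TSA. In TSA 31 of 39 (79.5%) had all arrays below vehicle, against the 17.1% of all probe sets, and in RA 7 of 39 (17.9%), against 11.0%. None passed the test in limma, against 1.36% of all probe sets in RA and 3.48% in TSA. At an unadjusted p under 0.05 (limma) there were 15 of 39 in TSA, against 19.6% of all, and 1 of 39 in RA, against 12.7%. Their median differed from that of the array by -0.06, -0.37 and 0.03 on RA replicates 1, 2 and 3, -0.29, -0.28 and -0.20 on the TSA arrays and 0.09, -0.04 and -0.03 on the vehicle arrays.

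Compared directly, RA and TSA did not differ in any ribosomal protein probe set that the test could call. None of 49 passed, against 3.91% of all probe sets, and 0 of 49 had an unadjusted p under 0.05, against 17.1%. The median log2 difference, RA minus TSA, was 0.11, with 0.046 for all probe sets. Arrays did not overlap for 1 of 49 higher in RA, against 13.8% of all, and for 0 lower in RA, against 13.5%. For 28 of 49 the 95% interval lay within 2-fold. The sign of the median rested on RA replicate 3, without which it was -0.0045. Without RA replicate 1, Rpl38 (99626_i_at) passed as higher in RA by 3.06 on the log2 scale, with an adjusted p of 0.0340 (limma).

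Other parts of the translation machinery were read from the same fit. Of 91 probe sets of ribosome assembly (69 genes), 2 were lower in RA (0.427% of all probe sets were called lower), and 3 in TSA (1.27%), with none higher. Their median log2 change was -0.59 in RA and -0.40 in TSA, against -0.12 and -0.17 for all probe sets. In RA, 43 of 91 (47.3%) had all arrays below vehicle, against 11.0% of all, and 33 (36.3%) in TSA, against 17.1%. The ribosomal proteins had 26.5% and 46.9% on this measure.

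The assembly genes that fell in RA were Nop2, an rRNA methyltransferase of the large subunit, and Rrp12, a factor in pre-ribosome export in yeast. Nop2 had 0.519, 0.459 and 0.445 on the RA arrays, 0.736, 0.616 and 0.718 on the TSA arrays and 1.04, 0.962 and 1.00 on the vehicle arrays, a log2 change of -1.0 ± 0.17 (SE), adjusted p = 0.0286 (limma) in RA. Rrp12 had 0.482, 0.431 and 0.489 on the RA arrays, 0.784, 0.721 and 0.691 on the TSA arrays and 1.08, 1.09 and 0.834 on the vehicle arrays, a change of -1.01 ± 0.18 (SE), adjusted p = 0.0367 (limma) in RA. All RA arrays of both genes lay below the TSA arrays as well as the vehicle arrays, and all TSA arrays of both lay below vehicle too. Of all probe sets 13.5% had all RA arrays below all TSA arrays. In the direct comparison of RA with TSA, 0 of 91 assembly probe sets passed.

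The genes past the threshold in TSA were Nop56, a core protein of the complexes that methylate rRNA, Polr1a, the largest subunit of RNA polymerase I, and Tcof1, which helps that polymerase. Nop56 had 0.514, 0.322 and 0.512 on the RA arrays, 0.471, 0.261 and 0.448 on the TSA arrays and 1.14, 1.03 and 0.829 on the vehicle arrays (log2 change in TSA -1.27 ± 0.28 (SE), adjusted p = 0.0451, limma). Polr1a had 0.738, 0.578 and 0.827 on the RA arrays, 0.535, 0.490 and 0.445 on the TSA arrays and 0.965, 1.17 and 0.868 on the vehicle arrays (-0.95 ± 0.20 (SE), adjusted p = 0.0431, limma). Tcof1 had 0.688, 0.675 and 0.603 on the RA arrays, 0.589, 0.506 and 0.565 on the TSA arrays and 1.09, 0.925 and 0.981 on the vehicle arrays (-0.80 ± 0.17 (SE), adjusted p = 0.0414, limma). All TSA arrays and all RA arrays of the 3 genes lay below all vehicle arrays, and the RA changes did not pass the test.

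The other lists changed in few members. Of 76 probe sets of the mitochondrial ribosome, that of Mrpl12 fell in TSA, with 0.694, 0.427 and 0.506 on the RA arrays, 0.416, 0.322 and 0.567 on the TSA arrays and 0.997, 1.06 and 0.943 on the vehicle arrays (log2 change -1.14 ± 0.25 (SE), adjusted p = 0.0452, limma). That is 1 of 76 called lower, near the background of 1.27%, and so no result about the list. Its medians were -0.34 in RA and -0.27 in TSA. None of 16 elongation probe sets passed in any comparison, with medians of -0.32 in RA and -0.36 in TSA. Of 56 initiation probe sets none passed against vehicle, with medians of -0.35 in RA and -0.33 in TSA. Eif4e2, a cap-binding protein, stood higher in RA against TSA (log2 difference 1.35 ± 0.30 (SE), adjusted p = 0.0449, limma). It had 1.93, 1.25 and 1.27 on the RA arrays and 0.745, 0.363 and 0.570 on the TSA arrays. On the vehicle arrays it had 0.834, 1.21 and 0.952. That is 1 of 56 called higher in RA against TSA, near the background of 1.7%, and so no result about the list. The Eif4e2 probe set carries the suffix _f described above.

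The 7 calls in these lists kept their sign but rarely their call under other settings. Nop2 passed in 5 of 17 alternatives, with adjusted p of 0.0274 to 0.136, and Rrp12 in 3 of 17, with 0.0251 to 0.161 (limma). Nop56 and Polr1a passed in 3 of 17 each, Tcof1 and Mrpl12 in 2 of 17 each and Eif4e2 in 5 of 18. With 1 array left out, Nop2, Rrp12 and Polr1a passed without vehicle replicate 3 alone, and the other 4 genes passed in none of 9 such fits.

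**Figure D4:**
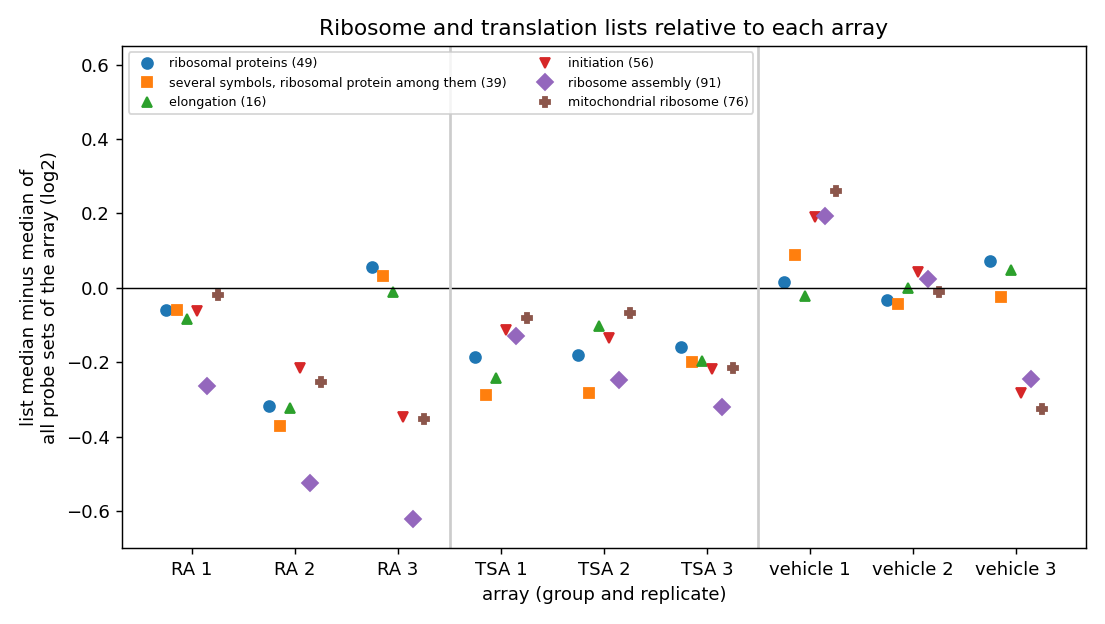
Median log2 value of each list minus the median of all probe sets of the same array (y axis) for the 9 arrays (x axis), with the number of probe sets in brackets. Ribosomal proteins lie between -0.19 and -0.16 on the TSA arrays; ribosome assembly lies lowest on all 3 RA arrays, down to -0.62, and at -0.25 on vehicle replicate 3, where the mitochondrial ribosome is at -0.33.

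Within arrays, the assembly list lay below the ribosomal proteins on all 3 RA arrays. Relative to the array's median it stood at -0.26, -0.52 and -0.62 on RA replicates 1, 2 and 3, -0.13, -0.25 and -0.32 on the TSA arrays and 0.19, 0.02 and -0.25 on the vehicle arrays. Vehicle replicate 3 thus lay close to RA replicate 1, and among the TSA arrays. Whether the assembly list and the ribosomal proteins differed was not tested. Fau, which encodes a small subunit protein as a fusion with a ubiquitin-like protein, had 1.11, 1.25 and 1.93 on the RA arrays, 0.982, 0.892 and 1.06 on the TSA arrays and 0.718, 0.987 and 1.29 on the vehicle arrays, on the log2 scale 0.49 in RA. The S6 kinase genes Rps6kc1, Rps6kb2 and Rps6ka3 did not pass, with log2 changes of 0.11, 0.25 and -1.20 in RA and 0.01, 0.10 and -2.58 in TSA.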

How the data were processed

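RNA of 9 samples was hybridised to Affymetrix arrays at a core facility, and raw data of the vehicle samples were entered into GeneSpring, per the labels. The values the authors deposited are linear ratios: the vehicle arrays averaged 1 within 1e-06 in all 12488 rows. How scanner signals became ratios is not stated in the labels used here. Where vehicle signal was dim, a ratio is less certain. Without brightness that limit could not be checked, and the stated precision rests on the spread between the 3 arrays per group.

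The 66 control rows were left out. Of the other 12422 probe sets, 10833 had 1 gene symbol in the platform annotation, 396 several and 1193 none; symbols were updated by Entrez ID with RefSeq GRCm38.p6, which altered no member. One limma fit (version 3.58.1, R 4.3.3; 6 residual degrees of freedom) on log2(ratio + 0.05) covered all probe sets and 3 comparisons. It was tested on simulated data. No filter was used. Alternatives were pseudocounts of 0.01 and 0.1, quantile normalisation, centred arrays, a filter on the lowest 30% by mean, fits on 6 arrays, a replicate block, a variance trend, averaged probe sets and left-out arrays. The difference from the median of all probe sets was added after seeing the data. Genes were named by a rule: members past the threshold, the 3 highest and 3 lowest gene-level changes per comparison, set stalk, reference and extra-ribosomal genes, genes whose probe sets differed by over 1 on the log2 scale, and called members of the other lists. The members, lists and rules were chosen with earlier results of these data known.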

Additional observations from a re-analysis of the deposited data

How the results depend on the processing

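In each of 19 alternative settings the members' median change was negative in RA and in TSA, also relative to all probe sets. No member was called in any setting in RA; without RA replicate 1 the count was 1 in TSA and 1 in RA against TSA (Rpl38 99626_i_at), and 0 under each other setting. The median in RA was -0.11 without the lowest 30% of probe sets by mean, which kept 27 of 49 members, and in TSA -0.22. Since vehicle averages 1 in every probe set, that mean is set by the treated arrays, so the filter takes out probe sets that fell (lower calls were 7 with it and 53 without it in RA, and 9 and 158 in TSA) and these medians say nothing about stability. In TSA the median was -0.18 after quantile normalisation and -0.18 with centred arrays. Relative to all probe sets the TSA median was -0.17 after quantile normalisation, -0.27 without vehicle and RA replicate 3, and -0.27 to -0.17 with 1 array left out. The RA against TSA median turned to -0.0045 without RA replicate 3.

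Probe sets called numbered 169 (RA), 432 (TSA) and 486 (RA against TSA). Quantile normalisation gave 87, 108 and 152, fits on 6 arrays 61 in RA and 168 in TSA, the variance trend 111 in RA, and leaving out vehicle and RA replicate 3 gave 98 in RA. With 1 array left out the counts were 54 to 209, 107 to 494 and 167 to 624. A C within 5 bases of the start counted 11 genes, not 5.

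With the replicate number as a block the counts were 141, 438 and 455, with 0 members. The smallest adjusted p of a member was then 0.179 in RA and 0.0576 in TSA (limma), against 0.318 and 0.148 without the block. Deviations of same-numbered arrays correlated at -0.0317 to 0.289. For RA with vehicle, TSA with vehicle and RA with TSA they were 0.249, 0.072 and 0.016 in replicate 1. The same pairs had -0.017, 0.032 and -0.032 in replicate 2, and 0.289, 0.237 and 0.190 in replicate 3. Arrays of unlike number were not compared, so whether the numbers pair the arrays was not tested. Of 1596 values of named members under alternatives, 93 changed sign without passing on either side, 2 passed and 0 reversed. No named member passed in the main fit, so the count of 0 does not show stability. The 7 called genes of the other lists passed in 2 to 5 of 17 or 18 alternatives each. The cause of the changes in counts was not tested. With 3 arrays a group, small changes can be missed.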
